A study of Homo sapiens with 12 samples.

Results

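THP-1 cells, an established human monocytic leukaemia line that grows in suspension and is used as a model of blood monocytes, were compared after 8 h with 50 µM chlorquinaldol and without treatment. Each group had 3 RNA-sequencing libraries, so the comparison uses 6 of the 12 libraries of the series, chosen by their treatment labels. The other groups of 3 received 20 µM chlorquinaldol or 1 µg/mL 3'-3'-cGAMP, each for 8 h, and serve below only for direct contrasts with 50 µM. All groups share the same cell line, and no allele, transgene or second agent is named for any of them. The labels give no vehicle and no time for the untreated cells, so solvent, harvest time and drug cannot be told apart. Nothing says that the replicates came from separate cultures, so the p-values measure only the spread between these libraries.

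Chlorquinaldol, an antiseptic applied to skin and mucosa, belongs to the chlorinated hydroxyquinolines, a class of ligands for zinc, copper and iron. Cells sense free zinc through the factor MTF1, which switches on metallothioneins, small cysteine-rich proteins that hold zinc and copper. Low iron or low oxygen slows the iron-dependent hydroxylases that mark HIF proteins for destruction, and genes for glucose use and blood vessel growth are then transcribed. Electrophiles and oxidants release NRF2, which drives genes for glutathione and NADPH supply, while heme and NRF2 together govern the heme oxygenase gene. 3'-3'-cGAMP is a cyclic dinucleotide of bacteria. Its receptor in the cell is STING, and the genes of interferon and of the response to interferon follow. In monocytes NF-kB drives chemokines and interleukin-1, which recruit and activate other leukocytes.

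Promoter sequences are shown for 3 groups of genes described below, because the letters that the cognate factors bind can be read in them. Each is a 150-base stretch that ends at or upstream of the annotated start, taken from RefSeq on GRCh38.p14 and printed 5′ to 3′ on the strand of the gene, with matches in capitals. Genes were picked for display after their values and letters had been seen. Other motifs were searched as well, and not every stretch is printed. The first group is metal-responsive, with the core TGCACNC or TGCGCNC in capitals on either strand, where N is any base. MT1X and MT1B encode metallothioneins, and SLC30A2 encodes a zinc transporter that moves the metal out of the cytosol. MT1X lies at chr16:56682274-56682423 (+), MT1B at chr16:56651736-56651885 (+) and SLC30A2 at chr1:26046134-26046283 (−).
MT1X: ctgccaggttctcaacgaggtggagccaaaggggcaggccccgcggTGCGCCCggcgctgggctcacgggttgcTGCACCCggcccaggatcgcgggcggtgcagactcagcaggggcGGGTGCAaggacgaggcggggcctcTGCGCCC
MT1B: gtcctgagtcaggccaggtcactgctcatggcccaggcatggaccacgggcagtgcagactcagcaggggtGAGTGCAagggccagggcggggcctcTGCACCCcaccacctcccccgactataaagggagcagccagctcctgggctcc
SLC30A2: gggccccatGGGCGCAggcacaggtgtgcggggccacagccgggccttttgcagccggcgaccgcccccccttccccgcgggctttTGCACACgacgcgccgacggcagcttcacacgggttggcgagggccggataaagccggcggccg
The MT1X stretch holds 4 matches, and those of MT1B and SLC30A2 hold 2 each. Over 300-base promoters (250 bases before to 50 after the RefSeq start), the core was in 4 of the 4 metallothionein promoters that could be matched by symbol. All 11490 tested genes with a matched promoter held it in 38.4% of cases, and genes at least 2-fold higher in 38.7%.

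The second group carries the interferon response core, TTTC followed after any 2 bases by TTTC, read on either strand, which the factors downstream of interferon receptors recognise. IFIT1 encodes a protein that binds viral RNA and ISG15 a ubiquitin-like modifier. IFIT1 lies at chr10:89392396-89392545 (+) and ISG15 at chr1:1013273-1013422 (+).
IFIT1: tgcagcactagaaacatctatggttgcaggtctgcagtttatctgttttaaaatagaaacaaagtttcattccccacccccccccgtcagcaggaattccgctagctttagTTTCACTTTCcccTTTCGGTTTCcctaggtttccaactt
ISG15: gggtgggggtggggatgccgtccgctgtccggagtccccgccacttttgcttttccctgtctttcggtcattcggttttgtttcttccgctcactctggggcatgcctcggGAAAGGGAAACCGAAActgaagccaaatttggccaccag
Both stretches hold 2 matches, which overlap on the other strand in ISG15. Among the interferon-stimulated genes with a matched promoter, 22 of 34 (64.7%) held the core in 300 bases, against 2.97% of all tested genes. The share was 4.46% of genes at least 2-fold higher.

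The last group carries the CCAAT box, which the factor NF-Y binds and which is common in promoters of mitotic genes. CDC20 encodes an activator of the anaphase-promoting complex and TOP2A the topoisomerase that untangles chromosomes. CDC20 lies at chr1:43358805-43358954 (+) and TOP2A at chr17:40417951-40418100 (−).
CDC20: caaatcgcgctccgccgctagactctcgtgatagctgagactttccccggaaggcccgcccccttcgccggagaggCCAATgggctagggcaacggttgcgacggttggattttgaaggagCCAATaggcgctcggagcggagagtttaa
TOP2A: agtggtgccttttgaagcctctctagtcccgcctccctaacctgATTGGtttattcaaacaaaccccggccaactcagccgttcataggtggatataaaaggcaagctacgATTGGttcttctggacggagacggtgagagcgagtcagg
Each stretch holds 2 boxes, on the plus strand of the gene in CDC20 and on the other strand in TOP2A. Of the mitosis genes with a matched promoter, 23 of 29 (79.3%) held the box in 300 bases, against 36.5% of all tested genes, 40.7% of genes at least 2-fold lower and 32.4% of those at least 2-fold higher. The box was not particular to lists that fell. Among lists that rose, it was in 12 of 16 (75%) sterol synthesis, 14 of 24 (58.3%) ATF4-linked and 2 of 16 (12.5%) NF-kB promoters. The hypoxia core ACGTG was in 13 of 20 promoters (65%) of the HIF target list, in 26.2% of all and in 23.8% of genes at least 2-fold higher. A match describes these letters only and does not show that a factor was bound.

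Libraries held 18861815 to 18983910 gene counts in untreated cells and 18973187 to 19180498 at 50 µM. Levels are counts per 1000000 (CPM), scaled by library size and composition, and 3 values in a row stand for replicates 1, 2 and 3. The RNA is bulk, so fewer cells of a kind and less RNA per cell cannot be told apart. Monocyte markers added up to 1800 to 1845 CPM in untreated cells and 1725 to 1950 at 50 µM. Markers of other lineages were low in both groups: T and NK cell genes summed to 8.99 to 11.1 and 13.1 to 17.2 CPM, B cell genes to 7.53 to 8.54 and 11.3 to 12.2, and fibroblast genes to 2.43 to 4.20 and 2.74 to 3.40. Of the listed T cell receptor genes, CD3E and CD3G had 0 counts untreated and 1 each at 50 µM, CD3D had 3 and 1, and TRAC had 1 and 20. TRGC2, a T cell receptor gene outside the list, averaged at least 10 CPM untreated and was among the 20 largest falls (log2 −4.18). Endothelial markers summed to 305 to 338 and 362 to 419 CPM, most of it PECAM1, which monocytes also express, although VWF rose 14.7-fold to 8.47, 7.62 and 2.96 CPM. Epithelial markers summed to 14.3 to 15.8 and 34.8 to 51.1 CPM, most of it MUC1, which rose 3.15-fold. The part of these markers in any result was not tested.

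At 50 µM the transcriptome moved over most of its tested genes. Of 16628 genes tested among 62588 gene identifiers, 11123 (66.9%) passed an adjusted p of 0.05 in edgeR's quasi-likelihood test with Benjamini-Hochberg adjustment. Of all tested genes 5352 (32.2%) were higher and 5771 (34.7%) lower, and these shares are the background for counts called against untreated cells. For counts against 20 µM the background is 19.1% higher and 19% lower. On the authors' FPKM scale with limma the split was 4063 higher and 6239 lower, with the median gene at a log2 change of −0.16 instead of −0.03. That analysis differs in scale, tool and pseudocount together. At least 2-fold changes numbered 2393 higher (14.4%) and 2134 lower (12.8%), the background for counts of 2-fold changes. Treated and untreated libraries did not overlap in 11745 of the 16628 genes (70.6%), so a lack of overlap was common to most genes. Large rises outnumbered large falls: 382 genes rose at least 8-fold and 159 fell as much, and 37 rose at least 64-fold against 15 that fell. Genes under 1 CPM in untreated cells were 2-fold higher in 32.1% of cases and 2-fold lower in 9.4%, whereas among genes of 100 to 1000 CPM the shares were 7.49% and 11.9%. A gene under the count filter in untreated cells was tested only if libraries of other groups reached it. The filter thus favours rises among low genes, and its part in the excess of large rises was not tested.

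The largest rises, among genes that reached a mean of 10 CPM and whose treated and untreated libraries lay apart, joined metal-binding proteins with secreted factors, receptors and heme oxygenase. MT1M, a metallothionein gene, had 0.101, 0.154 and 0.0518 CPM untreated and 358, 246 and 118 CPM at 50 µM, 2211-fold (log2 11.11 ± 0.51 SE, adjusted p = 7.77e-12). Every treated library lay far above the untreated ones, with replicate 1 highest and replicate 3 lowest. MT1B went from 0 counts to 1450, at least 528-fold higher with the untreated group set at 3 counts. NRCAM, a neuronal cell adhesion gene, had 2 counts untreated and 2573 at 50 µM (46.9, 40.5 and 56.1 CPM), a ratio of 1406 (95% interval from counting error alone, 389 to 11610). FLT1, a receptor of vascular endothelial growth factors, had 0.603, 0.512 and 0.880 CPM and then 152, 146 and 129 CPM, 212-fold (log2 7.73 ± 0.26, adjusted p = 3.5e-13). The 3 treated libraries of FLT1 and NRCAM lay close together, unlike those of the metallothioneins. Other genes of this set were ANGPTL4, a lipase inhibitor (147-fold), the small GTPase gene GEM (110-fold), the growth factor gene PDGFB (91.5-fold), the protease gene HTRA3 (77.8-fold), the lysophosphatidic acid receptor gene LPAR3 (62.4-fold), the G-protein regulator gene RGS1 (60.5-fold) and PHLDA1 (58-fold).

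The largest falls held secreted and membrane proteins of monocytes and transcripts of mitochondrial DNA. SERPINB2, plasminogen activator inhibitor 2, had 206, 198 and 229 CPM untreated and 1.86, 0.987 and 1.3 CPM at 50 µM, 155-fold lower (log2 −7.27 ± 0.48, adjusted p = 5.51e-10). No treated library came near an untreated one. SERPINB10, a neighbour in the same family, fell 25.9-fold from 47.0, 49.2 and 51.9 CPM to 1.68, 1.53 and 2.46. FAM135B fell 78.1-fold, the calcium channel subunit gene CACNA2D3 68.6-fold, the repetitive-locus transcript REXO1L1P 48.8-fold, VAT1L 22.9-fold and TMEM104 21.6-fold. P2RY2, a receptor for extracellular ATP and UTP, fell from 201, 197 and 176 CPM to 10, 8.71 and 8.43 (21.1-fold), and MS4A6A, a membrane gene of monocytes, from 428, 438 and 448 to 23, 19.4 and 26.0 (19.2-fold). CD38, a surface enzyme that consumes NAD, fell 16.9-fold and the arginine deiminase gene PADI2 19.4-fold. For CACNA2D3, leaving out replicate 1 at 50 µM, which was at 0 CPM, brought the log2 change from −6.10 to −5.49.

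**Figure D1:**
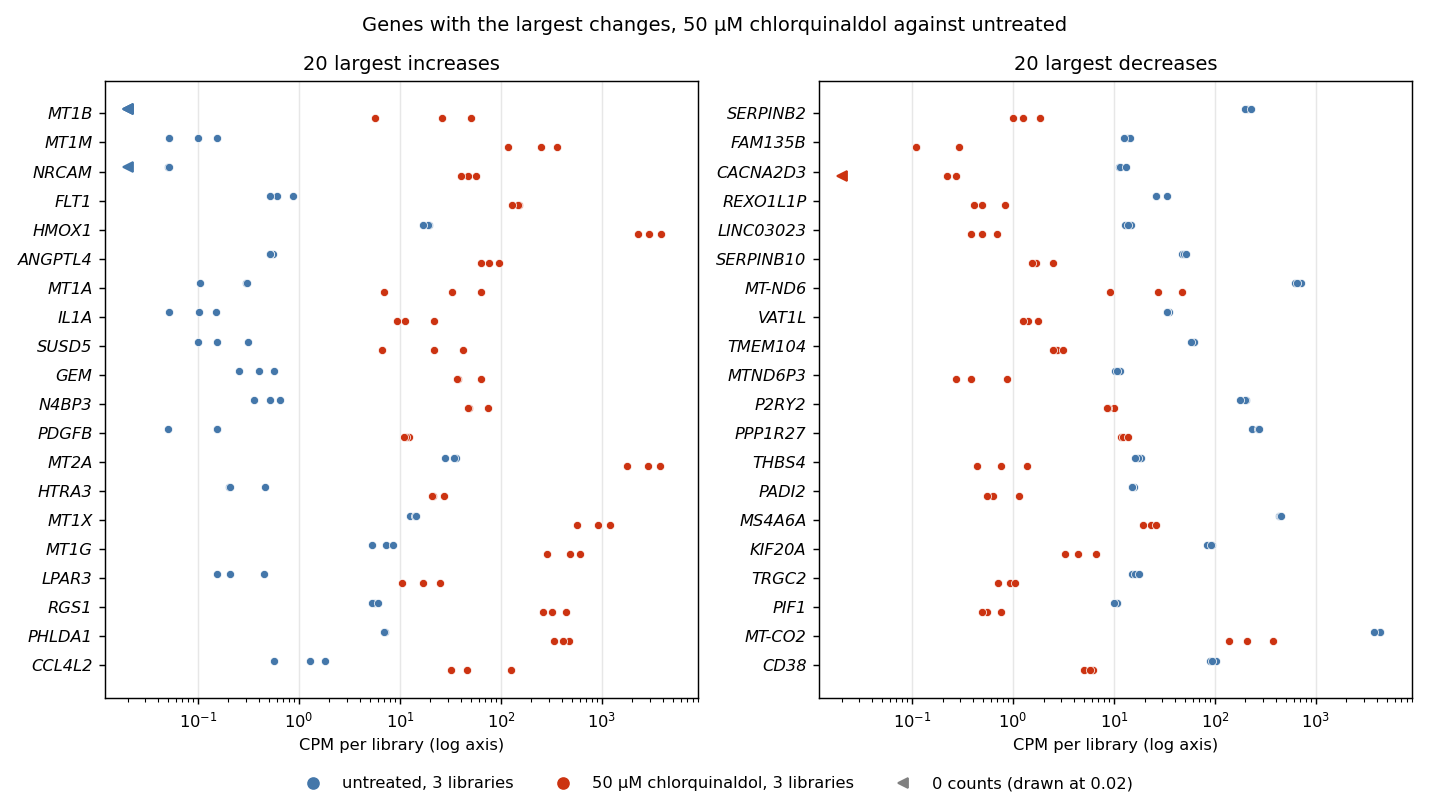
CPM in each library (log axis) for the 20 genes with the largest increases and the 20 with the largest decreases at 50 µM chlorquinaldol against untreated cells, 1 point per library. Only genes without overlap between treated and untreated libraries were eligible, so the 3 treated points lie apart from the 3 untreated points by choice. Triangles mark libraries with 0 counts, as for MT1B in untreated cells.

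The mixture of transcripts shifted with these changes. FTH1 alone went from 0.105% of all counts to 2.19%, and PLIN2 from 0.171% to 1.05%. The mitochondrial chromosome gave 5.45 to 6.09% of counts in untreated libraries and 2.25 to 2.47% at 50 µM. ACTB fell from 0.936% to 0.416% and CA2, carbonic anhydrase 2, from 0.347% to 0.0347%. The 25 most abundant genes of treated cells, chosen on that level, made up 9.99 to 10.9% of counts untreated and 16.1 to 16.6% at 50 µM, and the 25 most abundant of untreated cells, chosen likewise, 14.6 to 15% and 10.3 to 10.4%.

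Metallothionein genes rose in all 9 tested cases of 11 listed, each at least 2-fold, where 32.2% of all tested genes rose. MT1B and MT1H had 0 counts in untreated cells and were tested only through libraries of other groups, which favours rises. The median log2 change of the 9 genes was 6.42, or 6.02 with MT1B and MT1H set at their lower bounds. MT2A (chromosome 16, 56608199 to 56609497), the most abundant of them, had 27.8, 35.9 and 34.2 CPM and then 3756, 2872 and 1769 CPM, 85.8-fold. MT1X had 12.5, 14.1 and 14.3 CPM and then 1187, 917 and 559 CPM, 65.1-fold. Replicate 1 was highest and replicate 3 lowest for both. MT1G rose 65-fold, MT1F 30-fold and MT1E 29.6-fold. MT1A rose 140-fold with 63.7, 32.6 and 6.90 CPM in the treated libraries. Leaving out replicate 1 at 50 µM lowered the log2 change of MT1A from 7.13 to 6.40 and the lower bound of MT1B from 528-fold to 312-fold. These copies are similar in sequence, and reads may be exchanged between them. The summed level of the list was 3731 to 8132 CPM at 50 µM and 6326 to 8583 at 20 µM, and against 20 µM only MT1G was called, lower (log2 −0.64, adjusted p = 0.0131).

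Zinc transporters divided by direction of transport. SLC30 genes, whose proteins carry zinc out of the cytosol, rose in 5 of 8 tested cases and fell in 0. SLC30A1, the exporter of the plasma membrane, had 37.7, 41.5 and 44.6 CPM and then 385, 303 and 305, 8.02-fold (log2 3.00 ± 0.10, adjusted p = 4.78e-13). SLC30A2 rose 56.9-fold and SLC30A4 27-fold, both to under 8 CPM. SLC39 genes, whose proteins bring zinc into the cytosol, fell in 8 of 11 cases and rose in 3. SLC39A10 fell from 19.1, 18.2 and 17.9 CPM to 3.54, 2.90 and 3.29, 5.68-fold, SLC39A3 fell 4.42-fold, SLC39A11 3.9-fold, and SLC39A14, which also carries iron, 2.32-fold. Those that rose were led by SLC39A1 (1.80-fold). MTF1 itself rose 2.12-fold, from 68.7, 63.9 and 66.1 CPM to 158, 122 and 142. Copper handling genes were mixed, with 5 higher and 4 lower of 12, a split near that of all genes. The copper pump gene ATP7A rose 4.92-fold and the copper importer gene SLC31A1 2.50-fold, while SCO1, a copper chaperone of cytochrome oxidase, fell 3.04-fold.

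Transcripts of iron storage and uptake rose, and most heme synthesis genes fell. FTH1, the ferritin heavy chain (chromosome 11, 61959718 to 61967660), had 1055, 912 and 1073 CPM untreated and 24844, 23812 and 21237 CPM at 50 µM, 23-fold (log2 4.52 ± 0.15, adjusted p = 3.9e-13). FTL, the light chain, had 3948, 4370 and 4726 CPM and then 9994, 9789 and 8975, 2.21-fold. The heavy chain thus passed the light chain in CPM, and neither gene overlapped between groups. TFRC, the transferrin receptor that imports iron, had 86.6, 79.0 and 85.7 CPM and then 399, 403 and 475, 5.08-fold, so genes of iron uptake and of iron storage rose together. SLC11A2, the endosomal iron transporter, rose 2.86-fold. NCOA4, which delivers ferritin to lysosomes, fell 2.25-fold and the ferrireductase gene STEAP3 6.41-fold. In all, 10 of 18 iron genes rose and 6 fell. For TFRC no difference between 50 and 20 µM was detected (log2 0.07 ± 0.08, adjusted p = 0.533), whereas FTH1 was higher at 50 µM (log2 1.3, adjusted p = 1.32e-06).

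Of 8 heme synthesis genes, 6 fell and 1 rose. The gene that rose was ALAS1, the first and rate-limiting enzyme, from 129, 122 and 123 CPM to 478, 381 and 342 (3.21-fold). Among enzymes of the later steps UROD fell 2.16-fold and ALAD 2.00-fold. HMOX1, which degrades heme (chromosome 22, 35380361 to 35394214), moved far beyond these, from 19.2, 19.1 and 16.8 CPM to 2246, 2942 and 3819, 164-fold (log2 7.35 ± 0.33, adjusted p = 5.17e-12). Its order among treated libraries, with replicate 3 highest, was the reverse of that of MT2A. Iron-sulfur cluster assembly genes fell in 8 of 17 cases and rose in 3, with GLRX5 down 2.88-fold, NFS1 down 1.83-fold and IBA57 up 3.74-fold.

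Genes for glutathione and thioredoxin rose in 15 of 20 cases and fell in 4, and 9 rose at least 2-fold. The lower ones numbered 2 without any 1 of the treated libraries or without untreated replicate 2. SLC7A11, the cystine importer that feeds glutathione synthesis, had 7.64, 7.79 and 6.99 CPM and then 110, 107 and 145, 16.1-fold (log2 4.01 ± 0.23, adjusted p = 1.14e-10). NQO1, a quinone reductase, had 61.8, 58.8 and 62.3 CPM and then 298, 282 and 293, 4.77-fold. Both genes were higher in every treated library than in any untreated one. Glutaredoxin (GLRX) rose 4.37-fold and glutathione reductase (GSR) 3.95-fold. Catalase (CAT), which removes hydrogen peroxide in peroxisomes, fell from 525, 508 and 557 CPM to 228, 227 and 270, 2.19-fold. The list stood above its level at 20 µM in 12 of 20 cases and below in 1, where 19.1% of all genes were above.

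Of 9 genes for NADPH supply 5 were higher and 4 lower. Malic enzyme ME1 had 29.7, 27.5 and 29.1 CPM and then 334, 308 and 393, 12-fold, while PGD, a dehydrogenase of the pentose phosphate pathway, rose 3.77-fold. RPIA and PGLS, other enzymes of that pathway, fell 2.39-fold and 1.62-fold. Among 8 regulators of NRF2, 7 rose and 1 fell, and all 8 were higher at 50 than at 20 µM. MAFF, a small MAF partner, rose 13.7-fold, OSGIN1 10.5-fold and SQSTM1, a cargo receptor that binds KEAP1, from 187, 174 and 186 CPM to 1290, 1093 and 1089 (6.34-fold). BACH1, which represses HMOX1 when heme is low, rose 5.72-fold, and MAFG fell 1.74-fold. AHR, the aryl hydrocarbon receptor gene, rose 4.11-fold, although its list of 6 had only 3 higher and 1 lower, and 0 lower without replicate 2 or 3 at 50 µM or untreated replicate 1 or 3.

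**Figure D2:**
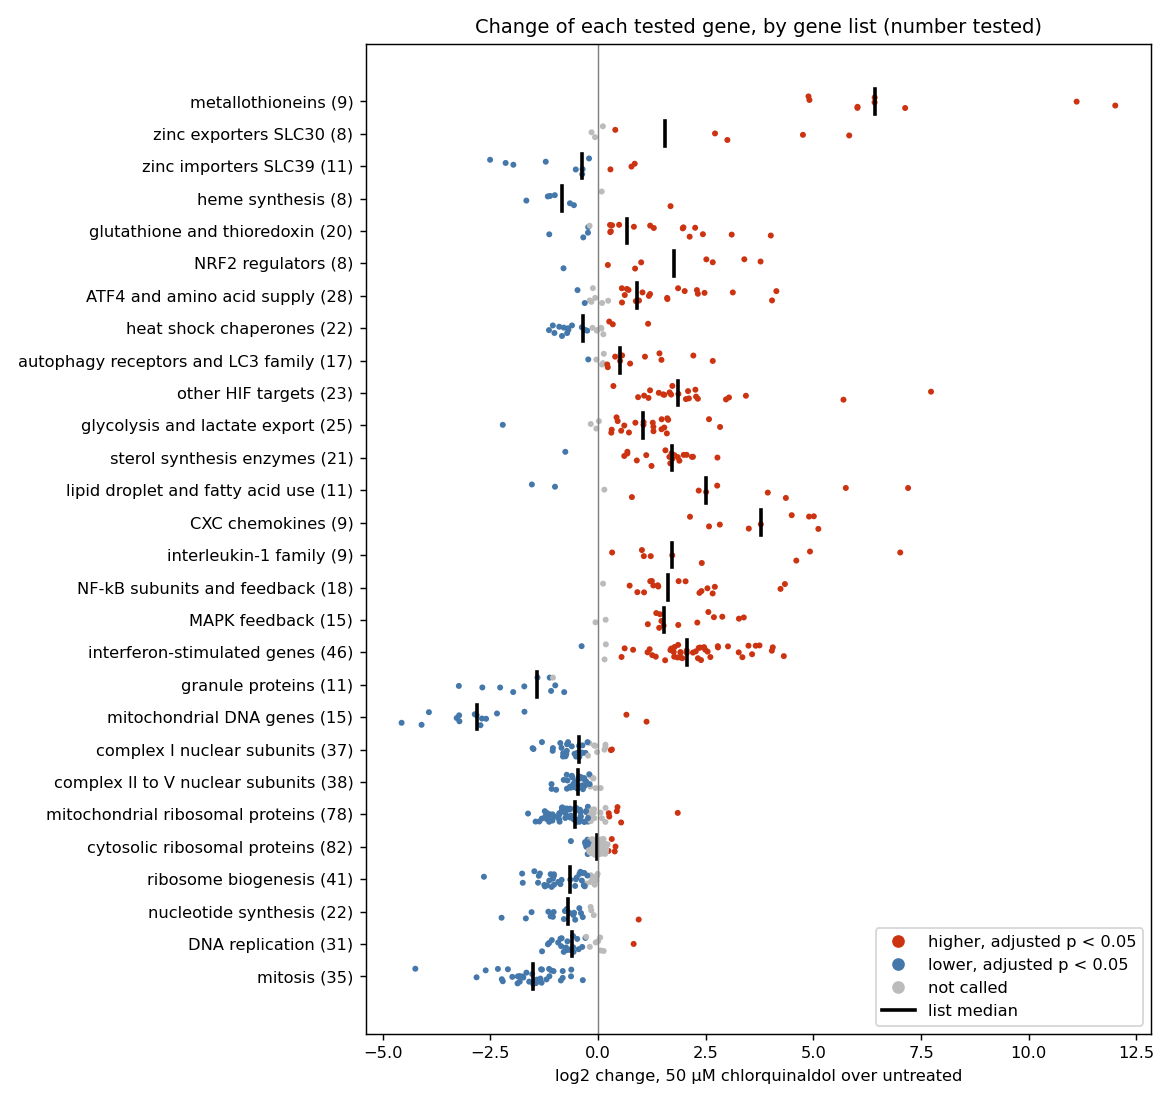
Log2 change at 50 µM over untreated for each tested gene of 28 gene lists (number tested in brackets), 1 point per gene, coloured where the gene passed the test and grey where it did not, with a bar at the list median. Metallothioneins and CXC chemokines lie wholly to the right of zero, mitosis genes wholly to the left, and zinc exporters and importers on opposite sides for the most part.

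Stress genes of the cytosol and endoplasmic reticulum did not rise as a group, whereas ATF4-linked genes did. Heat shock chaperone genes fell in 13 of 22 cases and rose in 3: AHSA1, which activates HSP90, fell 2.20-fold, HSPA4 2.07-fold and HSPB1 1.78-fold. HSPA1A, whose sequence is nearly identical to HSPA1B, had 11.5, 11.9 and 13.8 CPM and then 8.47, 4.99 and 6.52, 1.87-fold lower. HSPA1B had 471, 178 and 291 CPM at 50 µM. Most reads of the pair were thus assigned to HSPA1B there, and the fall of HSPA1A alone is uncertain. Unfolded protein response genes had 9 higher and 5 lower of 20, with 0 at least 2-fold higher. HERPUD1, of the degradation machinery, rose 1.60-fold and SDF2L1, a chaperone partner of the lumen, fell 3.00-fold. Proteasome subunit genes fell in 14 of 31 cases and rose in 6, all by less than 2-fold, among them PSMD2 (1.77-fold lower) and PSMA1 (1.67-fold higher).

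ATF4 and amino acid supply genes rose in 20 of 28 cases and fell in 2, with 13 at least 2-fold higher, and 1 fell without replicate 1 at 50 µM or untreated replicate 2. ATF3, a stress-induced repressor, had 7.39, 7.02 and 9.11 CPM and then 179, 145 and 91.2, 17.6-fold. STC2, a secreted glycoprotein gene, rose 8.75-fold and DDIT4, an inhibitor of mTORC1, 4.99-fold from 126, 150 and 163 CPM. DDIT3, the pro-apoptotic factor CHOP, had 45.9, 51.3 and 63.9 CPM and then 192, 191 and 202, 3.63-fold. Its treated libraries differed by less than its untreated ones. SLC38A2, a neutral amino acid carrier, rose 2.05-fold, while SLC1A4 fell 1.39-fold. Against 20 µM, 20 of the 28 genes were higher and 1 lower. Cytosolic aminoacyl-tRNA synthetase genes, some of which are ATF4 targets, were divided, 6 higher and 7 lower of 20: WARS1 rose 1.83-fold and VARS1 fell 2.37-fold.

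Autophagy receptor and LC3 family genes rose in 11 of 17 cases, and cathepsin genes in 8 of 12. GABARAPL1 rose 4.64-fold from 3.97, 4.05 and 3.78 CPM, OPTN 2.78-fold and MAP1LC3B, whose protein coats autophagosomes, 2.69-fold. CTSL, cathepsin L, had 106, 98.2 and 113 CPM and then 1138, 1005 and 981, 9.82-fold (log2 3.30 ± 0.11, adjusted p = 3.5e-13). CTSD rose 2.30-fold and CTSB 1.86-fold, and CTSC, which activates granule proteases, fell 2.00-fold. Vacuolar proton pump genes rose in 9 of 16 cases and fell in 2, all by less than 2-fold, and the lower ones numbered from 1, for example without replicate 1 at 50 µM, to 4 with limma on log2(FPKM + 1).

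Sterol synthesis genes rose in 20 of 21 cases, 16 of them at least 2-fold. HMGCS1, the synthase that makes HMG-CoA (chromosome 5, 43289395 to 43313512), had 203, 203 and 229 CPM and then 1641, 1330 and 1371, 6.83-fold (log2 2.77 ± 0.10, adjusted p = 5.42e-13). SQLE, squalene epoxidase, rose 4.16-fold from 296, 277 and 326 CPM, SC5D 3.70-fold and ACAT2 3.27-fold. Treated and untreated libraries of HMGCS1 were far apart. PMVK fell 1.69-fold. The summed level of the list was 2876 to 3239 CPM untreated, 6973 to 7478 at 20 µM and 8858 to 9605 at 50 µM. Of the 21 genes, 13 were higher at 50 than at 20 µM and 2 lower.

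Genes that report on the sterol level and hold it in balance moved with the enzymes. INSIG1 and INSIG2, which retain the SREBP factors in the endoplasmic reticulum, rose 3.62-fold and 4.12-fold, and the sterol carrier gene STARD4 3.71-fold from 114, 117 and 128 CPM. SCAP, the escort of SREBP, fell 2.31-fold and SREBF1 fell 1.86-fold. The list of sterol efflux genes and LXR targets was divided, 3 higher and 4 lower of 9 (2 lower without replicate 3 at 50 µM), with 0 at least 2-fold higher. Those that rose included NR1H3 and NR1H2 (log2 0.98 and 0.71), which encode the LXR receptors themselves. The targets LPCAT3 and MYLIP fell (log2 −0.74 and −0.59). Fatty acid synthesis and desaturation genes rose in 6 of 11 cases and fell in 1 (0 without replicate 2 or 3 at 50 µM), with SCD, the stearoyl-CoA desaturase, up 2.15-fold from 859, 839 and 989 CPM and FADS2 up 1.85-fold.

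Genes for lipid uptake and storage rose more steeply. PLIN2, the coat protein of lipid droplets, had 1446, 1537 and 1969 CPM and then 13560, 10431 and 9711, 6.81-fold. FABP4, a fatty acid carrier of macrophages and adipocytes, had 5.78, 5.18 and 6.57 CPM and then 399, 360 and 187, 53.9-fold (log2 5.75 ± 0.27, adjusted p = 9.12e-12). CD36, a scavenger receptor for oxidised lipoprotein and fatty acids, had 15.7, 15.8 and 16.7 CPM and then 256, 265 and 222, 15.4-fold. No library of either group came near the other for these 3 genes. FABP5 rose 5.70-fold, whereas CPT1A, which admits fatty acids to mitochondria for oxidation, fell 2.90-fold and DGAT1, which makes triglyceride, 2.00-fold. In all 8 of 11 genes rose and 2 fell, and the same counts held against 20 µM, with 8 above and 2 below.

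Hypoxia-linked genes rose together. All 23 tested HIF targets outside glycolysis rose, 21 of them at least 2-fold. PLOD2, a collagen lysyl hydroxylase, had 16.3, 19.3 and 18.3 CPM and then 198, 185 and 199, 10.8-fold (log2 3.43 ± 0.09, adjusted p = 8.27e-14). VEGFA had 196, 185 and 213 CPM and then 879, 816 and 835, 4.26-fold, and ERO1A 115, 113 and 132 CPM and then 641, 533 and 574, 4.85-fold. The replicates of these genes differed little beside the change. NDRG1, long known as a gene induced by iron chelators and hypoxia, rose from 844, 827 and 1012 CPM to 4013, 3877 and 3691, 4.32-fold. The summed level of the list was 3189 to 3777 CPM untreated, 7442 to 9054 at 20 µM and 11440 to 12870 at 50 µM, and 17 of the 23 genes were higher at 50 than at 20 µM with 0 lower.

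Oxygen-sensing genes themselves had 5 higher and 2 lower of 9, or 1 lower without replicate 2 or 3 at 50 µM. EGLN3 and EGLN1, hydroxylases that mark HIF and are also its targets, rose 7.70-fold and 2.54-fold, the latter from 226, 217 and 262 CPM. HIF1A rose 1.29-fold, and CITED2, a HIF-induced inhibitor of its coactivator, fell 1.78-fold from 526, 552 and 621 CPM. Glycolysis and lactate export genes rose in 21 of 25 cases and fell in 1. ENO2 had 41.9, 39.8 and 47.4 CPM and then 306, 305 and 308, 7.13-fold, the glucose transporter gene SLC2A3 rose 5.97-fold and PDK1, a kinase that inhibits pyruvate dehydrogenase, 2.91-fold. The member that fell was HK3, a hexokinase of myeloid cells, from 38.4, 40.5 and 43.6 CPM to 7.13, 10.2 and 9.03 (4.63-fold). Iron-dependent demethylases and dioxygenases had 9 higher and 6 lower of 19, and 3 lower without replicate 2 or 3 at 50 µM. KDM7A rose 3.6-fold and TET2 2.94-fold, while FTO, an RNA demethylase, fell 2.58-fold.

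NF-kB subunits and feedback genes rose in 17 of 18 cases and fell in 0. TRAF1, an adaptor of TNF receptors, had 7.99, 5.89 and 6.37 CPM and then 187, 125 and 98.5, 20.2-fold (log2 4.34 ± 0.21, adjusted p = 1.55e-11). BIRC3, a ubiquitin ligase that limits cell death, rose 18.9-fold, RELB 6.55-fold and NFKB2 5.28-fold from 45.5, 38.3 and 39.8 CPM. Replicate 1 had the highest treated level of all 4. Of the 18 genes 17 were also higher at 50 than at 20 µM, and the summed level was 636.9 to 715.3 CPM untreated, 883.6 to 1063 at 20 µM and 2118 to 3304 at 50 µM.

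CXC chemokine genes, most of which encode attractants of neutrophils, rose in all 9 tested cases of 11 listed, each at least 2-fold, with a median log2 change of 3.78. Any member under the count filter in untreated cells was tested only if libraries of other groups reached it, which favours rises. CXCL8 (chromosome 4, 73740506 to 73743716) had 106, 69.7 and 106 CPM and then 4166, 2591 and 3025, 34.6-fold (log2 5.11 ± 0.23, adjusted p = 5.28e-12). CXCL2 had 2.31, 1.08 and 1.81 CPM and then 83.3, 37.9 and 34.9, 29.8-fold, and CXCL3 rose 22.6-fold. No treated library of these 3 genes came near an untreated one. CXCL10, an interferon-inducible member that attracts T cells, rose 32.2-fold to 13.9, 14 and 5.69 CPM, and its log2 change of 5.01 became 6.37 without untreated replicate 1, which held most of its untreated counts. All 9 were higher at 50 than at 20 µM. Of 13 CC chemokine genes 8 rose and 2 fell, or 1 without replicate 1 or 3 at 50 µM. CCL20 rose 14.1-fold, CCL3 had 18.4, 25.7 and 40.9 CPM and then 385, 259 and 166 (9.54-fold), and CCL23 fell 2.07-fold. CCL4L2 and CCL3L3 are near-copies of CCL4 and CCL3, so their levels are uncertain.

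Interleukin-1 family genes rose in all 9 tested cases of 12 listed. Low members such as IL1A reached the count filter only through libraries of other groups, which favours rises. IL1B (chromosome 2, 112829751 to 112836903) had 29.6, 18 and 18.1 CPM and then 849, 421 and 330, 24.3-fold (log2 4.60 ± 0.30, adjusted p = 4.73e-10). IL1A had 0.151, 0.102 and 0.0518 CPM and then 21.7, 11.2 and 9.31, 129-fold. Replicate 1 was the highest treated library for both. The receptor gene IL1R1 rose 5.31-fold and its partner IL1RAP 2.34-fold. TNF had 57.0, 73.8 and 91.0 CPM and then 221, 197 and 93.7, so that the highest untreated and the lowest treated library nearly met (2.31-fold, adjusted p = 0.000175). Against 20 µM it was not called (log2 −0.53, adjusted p = 0.0733). TNFSF15 rose 31.2-fold and TNFSF13B, the B cell survival factor BAFF, 2.96-fold.

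Other cytokine and growth factor genes rose in 12 of 13 tested cases of 23 listed, and in 7 of 8 with 5 CPM required in 3 libraries. Members under the count filter in untreated cells were tested only if libraries of other groups reached it, which favours rises. CSF1, the macrophage growth factor, had 4.32, 3.69 and 3.05 CPM and then 66.6, 49.2 and 33.6, 13.5-fold, and PTGS2, the inducible cyclooxygenase, rose 12.1-fold and HBEGF 2.47-fold. IL16, which attracts CD4+ cells, fell 1.57-fold. EBI3, a subunit shared by interleukin-27 and interleukin-35, rose 27.8-fold to 35.8, 28.4 and 18.6 CPM, and its log2 change of 4.79 became 5.4 without untreated replicate 1. Inflammasome genes had 7 higher and 3 lower of 11. NLRP3, a sensor that leads to interleukin-1 release, rose 2.50-fold from 104, 107 and 103 CPM, NLRP1 4.09-fold and the pore-forming GSDME 4.04-fold. NAIP, a sensor of bacterial flagellin, fell 4.12-fold and GSDMD, the main pore-forming gasdermin of macrophages, 1.59-fold.

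Immediate early and AP-1 genes rose in 16 of 22 cases. JUN had 103, 102 and 138 CPM and then 540, 444 and 407, 4.05-fold, KLF4 rose 4.17-fold and KLF10 3.75-fold. EGR1, a serum-response gene, had 139, 235 and 322 CPM and then 187, 143 and 67.3, and the groups overlapped. Its fall (log2 −0.81, adjusted p = 0.0176) was lost in DESeq2 (adjusted p = 0.0807), on log2(FPKM + 1) over all genes with limma (0.0635), without replicate 2 or 3 at 50 µM (0.0505 and 0.119) and without untreated replicate 3 (0.141). Genes that dampen MAP kinase signalling rose in 13 of 15 cases, each at least 2-fold. DUSP6, the phosphatase of ERK, had 53.8, 49.7 and 56.8 CPM and then 361, 447 and 376, 7.39-fold (log2 2.89 ± 0.11, adjusted p = 1.86e-12). DUSP4 rose 10.4-fold, DUSP5 9.66-fold and SPRED1, an inhibitor of RAF activation, 5.90-fold.

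Toll-like receptor pathway genes rose in 10 of 17 cases and fell in 3. IRAK2, a kinase downstream of the receptors, had 7.29, 6.25 and 6.93 CPM and then 166, 110 and 87.7, 17.8-fold. TLR6, TLR1 and TLR4 rose 3.86-fold, 3.06-fold and 2.77-fold. IRAK3, which restrains the pathway, fell from 184, 166 and 161 CPM to 87.0, 90.2 and 111, 1.77-fold, and IRAK1 fell 1.42-fold. TICAM1, the adaptor of TLR3 and TLR4 towards interferon, rose 3.15-fold.

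Interferon-stimulated genes rose in 43 of 46 cases, 40 of them at least 2-fold, with a median log2 change of 2.06. IFIT1 (chromosome 10, 89392546 to 89406486), whose promoter is printed above, had 3.12, 1.64 and 2.33 CPM and then 51.7, 59.0 and 30.8, 19.9-fold (log2 4.31 ± 0.24, adjusted p = 8.96e-11). ISG15 had 6.03, 7.89 and 7.30 CPM and then 44.8, 51.5 and 20.6, 5.51-fold. Replicate 3 was the lowest treated library for both but still lay above every untreated one. OAS1, which senses double-stranded RNA, rose 16.7-fold, IFIT3 16.4-fold, IFIT2 10.2-fold and TRIM22 5.83-fold. IFITM2 was the member that fell (log2 −0.38, adjusted p = 0.00445), and this was lost without replicate 3 at 50 µM (log2 −0.20, adjusted p = 0.0876). Against 20 µM 42 of the 46 were higher and 0 lower.

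Set directly against cells given cGAMP, a contrast that shares the 50 µM libraries with the one above, all 46 interferon-stimulated genes were lower at 50 µM chlorquinaldol and 0 higher, where 34.7% of all tested genes were lower and 66.7% were called in either direction. Their summed level was 1062 to 1118 CPM untreated, 2760 to 4224 at 50 µM and 17460 to 19460 with cGAMP. IFIT2 was 23.5-fold lower than with cGAMP (log2 −4.56), IFIT1 12.3-fold (log2 −3.62, adjusted p = 2.75e-11), ISG15 11.5-fold and OAS1 2.44-fold. CXCL8 went the other way, 82-fold higher at 50 µM than with cGAMP (log2 6.36, adjusted p = 1.19e-12), as did IL1B at 84.4-fold and CXCL3 at 111-fold. Each of these ratios exceeds the one over untreated cells given above. These genes were thus estimated lower with cGAMP than untreated, which was not tested. CXC chemokines had 6 of 9 genes above cGAMP and 2 below, the interleukin-1 family 7 of 9 and 2, and CC chemokines 6 of 13 and 7. Of all tested genes 32% were higher than with cGAMP. Of the interferon genes IFNB1 had 3 counts untreated and 6 at 50 µM, a ratio of 2.19 (95% interval from counting error alone, 0.467 to 13.5), and it was not called (adjusted p = 0.362). Without untreated replicate 2, which held all 3 counts, it was called on 6 counts against 0 (adjusted p = 0.025). With cGAMP IFNB1 averaged 12.6 CPM, and IFNL1, at 1.17 CPM there, had 0 counts at 50 µM.

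Genes of the cGAS-STING route were divided, 6 higher and 3 lower of 11. STING1 had 239, 259 and 239 CPM and then 92.1, 101 and 85.1, 2.65-fold lower (log2 −1.41 ± 0.08, adjusted p = 1.09e-10), with no overlap. CGAS had 58.7, 55.9 and 60.7 CPM and then 78.4, 67.7 and 75.9, 1.27-fold higher. IFI16, a DNA sensor that is itself interferon-induced, rose 5.87-fold from 18.3, 17.1 and 18.9 CPM. IRF5, a factor for inflammatory cytokines, fell 2.46-fold.

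**Figure D3:**
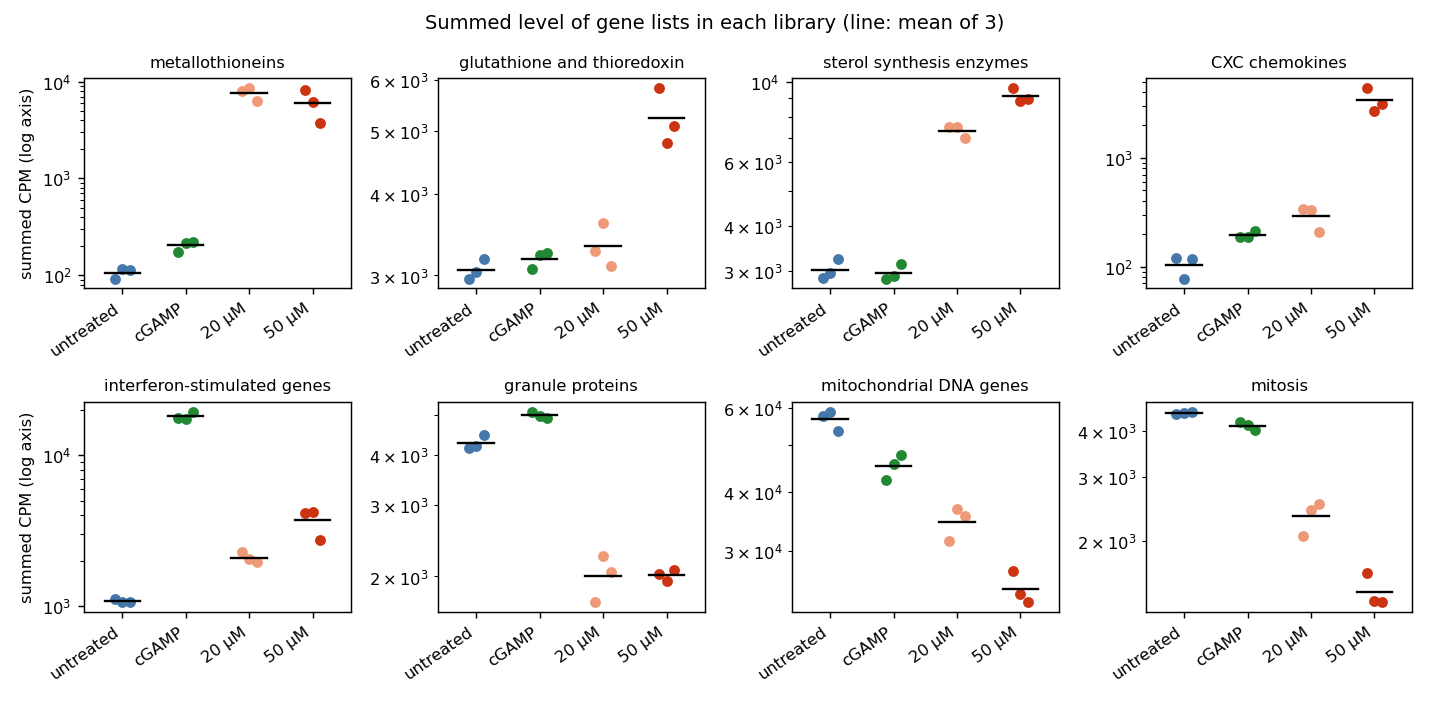
Summed CPM of gene lists in each of the 12 libraries (log axis), by group, with a line at the mean of 3. Metallothioneins sum to 6326 to 8583 CPM at 20 µM and 3731 to 8132 at 50 µM, CXC chemokines to 209.5 to 339.3 and 2706 to 4370, and interferon-stimulated genes are highest with cGAMP.

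Genes of the myeloid lineage changed in both directions, and granule proteins fell as a group. Of 11 tested granule genes 10 fell, 8 at least 2-fold, and 0 rose. CTSG, cathepsin G, had 325, 369 and 325 CPM and then 35.8, 35.8 and 37.1, 9.38-fold lower (log2 −3.23 ± 0.11, adjusted p = 3.5e-13). PRTN3, proteinase 3, had 241, 285 and 257 CPM and then 53.6, 57.3 and 51.2, 4.83-fold lower, and ELANE, neutrophil elastase, fell 3.27-fold. These proteases are made at the promyelocyte stage, and their treated libraries were nearly equal to each other. MS4A3, a gene of granulocyte and monocyte progenitors, fell 6.43-fold. The summed level at 50 µM, 1946 to 2077 CPM, overlapped that at 20 µM, 1725 to 2249.

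Among myeloid transcription factors, MYB and GFI1 fell and MAF rose. MYB, which sustains immature blood cells, had 437, 443 and 472 CPM and then 39.2, 37.2 and 40.4, 11.6-fold lower (log2 −3.53 ± 0.16, adjusted p = 6.8e-12). GFI1, a repressor of granulocytic progenitors, fell 7.51-fold from 263, 236 and 235 CPM. MAF, a factor of macrophages, rose 5.34-fold. The treated libraries of MYB differed little among themselves. The list as a whole had 8 higher and 12 lower of 23.

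Macrophage differentiation genes were 7 higher and 5 lower of 14, so the direction depended on the gene. SPP1, osteopontin, had 253, 247 and 307 CPM and then 4336, 3663 and 3051, 13.7-fold, and GPNMB, a glycoprotein of lipid-laden macrophages, rose 5.79-fold from 121, 113 and 144 CPM. CHI3L1, a secreted chitinase-like protein, fell 2.58-fold and the scavenger receptor gene MARCO 3.65-fold. Monocyte identity genes were 8 higher and 6 lower of 18. CCR2, the receptor that draws monocytes into tissue, had 157, 146 and 150 CPM and then 27.0, 25.9 and 25.8, 5.77-fold lower, and ITGAM, CD11b, had 60.1, 59.2 and 60.4 CPM and then 200, 194 and 160, 3.08-fold higher. CSF3R, the G-CSF receptor gene, fell 2.24-fold, and the costimulatory CD86 rose 5.54-fold to under 10 CPM.

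Leukocyte integrin genes rose in 11 of 14 cases and fell in 2, or 1 without replicate 3 at 50 µM. ITGAX, CD11c, rose 5.22-fold from 97.7, 91.6 and 97.0 CPM to 502, 500 and 493, ITGB5 4.88-fold and ITGB3 11.2-fold to under 5 CPM. ITGA4, a subunit of the receptor for VCAM-1, fell from 152, 148 and 149 CPM to 36.6, 40.8 and 57.8, 3.32-fold. The phagocyte oxidase had 4 of 6 genes higher: CYBB, its catalytic subunit, rose 3.61-fold from 94.0, 70.6 and 84.7 CPM, and NCF1, whose reads may be shared with its pseudogenes, 6.67-fold. NCF4 fell 1.53-fold.

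Genes of plasminogen activation moved in both directions. Besides the fall of SERPINB2 given above, SERPINE2, an inhibitor of serine proteases, had 8.79, 7.23 and 8.28 CPM and then 270, 180 and 162, 25.2-fold higher. The urokinase gene PLAU fell 2.95-fold from 81.9, 87.6 and 96.2 CPM and its receptor gene PLAUR rose 4.23-fold. The list had 7 higher and 4 lower of 14.

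Antigen presentation genes fell more often than they rose. MHC class I genes had 9 lower and 4 higher of 16. NLRC5, their transactivator, fell from 61.4, 55.2 and 54.4 CPM to 18.2, 19.2 and 17.4 (3.12-fold), and the immunoproteasome genes PSMB9, PSMB8 and PSMB10 fell 2.14-fold, 1.98-fold and 1.74-fold, while TAPBP, a peptide-loading chaperone, rose 1.59-fold. The immunoproteasome genes are inducible by interferon, and here they went against the interferon-stimulated list. Class II genes had 7 lower and 3 higher of 12. RFX5, a promoter factor of class II, fell 3.09-fold from 127, 117 and 113 CPM and HLA-DQB1 2.05-fold, but CD74, the invariant chain, rose 1.60-fold and HLA-DRB1 1.56-fold.

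Transcripts of mitochondrial DNA divided by kind. All 13 mRNAs fell at least 2-fold, and both ribosomal RNAs rose. MT-CO1, a cytochrome oxidase subunit, had 13670, 13190 and 11900 CPM and then 2116, 1273 and 761, 9.34-fold lower (log2 −3.22 ± 0.29, adjusted p = 2.57e-08). MT-CO2 had 4284, 4248 and 3709 CPM and then 372, 208 and 136, 17.1-fold lower, and MT-ND5 fell 15.2-fold. In each of the 13 the treated order was the same, replicate 1 highest and replicate 3 lowest. MT-CO3 fell least, from 5644, 5948 and 4947 CPM to 2366, 1514 and 1187 (log2 −1.71). MT-ND6, the mRNA encoded on the light strand, fell most, from 621, 706 and 650 CPM to 47.4, 27.5 and 9.14 (23.6-fold), though without strand its reads cannot be told apart from antisense reads of the opposite transcript. MT-ND3 had a log2 change of −3.28, which became −4.03 without replicate 1 at 50 µM.

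MT-RNR2, the large ribosomal RNA, had 10341, 10417 and 11343 CPM and then 15293, 17100 and 18318, 1.58-fold higher (adjusted p = 0.000299). MT-RNR1, the small one, had 721, 765 and 855 CPM and then 2331, 1593 and 1189, 2.18-fold higher (adjusted p = 0.000133). Neither overlapped between groups, and the treated order of the 2 genes was opposite. The libraries were selected for poly(A), so the levels of these RNAs also depend on their tails, and the 22 mitochondrial tRNA genes had 27 counts untreated and 5 at 50 µM with none tested. Against 20 µM 14 of 15 mitochondrial DNA genes were lower and 0 higher. Only 13 of the 15 are mRNAs, so the lower ones include a ribosomal RNA, although both ribosomal RNAs were higher than in untreated cells.

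**Figure D4:**
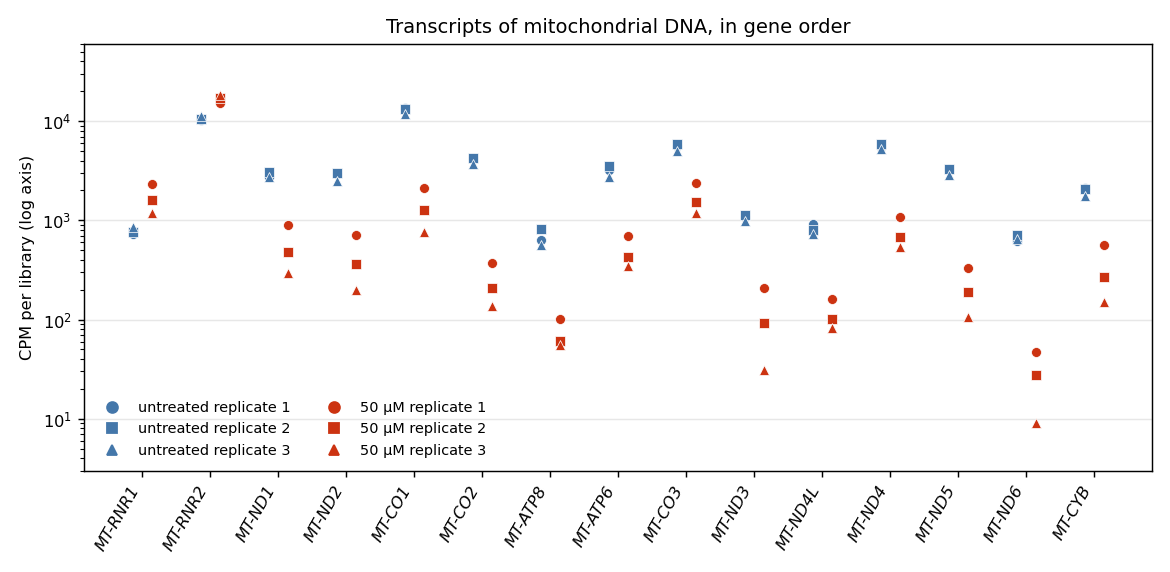
CPM in each library (log axis) for the 15 tested genes of mitochondrial DNA in gene order, untreated and 50 µM chlorquinaldol. The 2 ribosomal RNAs lie higher at 50 µM and each of the 13 mRNAs lies lower, most of all MT-ND6.

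Nuclear genes for mitochondria also fell, by smaller amounts. Genes for mitochondrial transcription and RNA stability fell in 16 of 22 cases and rose in 2, or 1 without untreated replicate 1 or 2. HSD17B10, a subunit of the tRNA-processing RNase P, had 28.8, 35.9 and 31.6 CPM and then 10.1, 10.5 and 9.36, 3.21-fold lower, the helicase gene TWNK fell 3.20-fold, ELAC2, which cuts tRNA 3′ ends, 2.55-fold and POLRMT, the mitochondrial RNA polymerase, 1.77-fold. The nuclear subunits of complex I fell in 27 of 37 cases and rose in 2 (5 without replicate 3 at 50 µM), and those of complexes II to V fell in 32 of 38 and rose in 0. NDUFS6 fell 2.87-fold, NDUFS8 2.83-fold and NDUFS1 2.46-fold, and ATP5F1A, a catalytic subunit of ATP synthase, had 525, 554 and 552 CPM and then 239, 257 and 277, 2.11-fold lower. The median log2 change of these lists, −0.44 and −0.46, compares with −2.82 for the genes of mitochondrial DNA.

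Citric acid cycle genes fell in 17 of 21 cases, with citrate synthase (CS) down 2.19-fold from 264, 264 and 246 CPM and MDH2 down 1.74-fold. PC, pyruvate carboxylase, was the member that rose, 2.48-fold. Mitochondrial ribosomal protein genes fell in 59 of 78 cases and rose in 6, with a median log2 change of −0.53: MRPL12 fell 3.08-fold and MRPS6 rose 3.61-fold from 31.0, 33.1 and 34.6 CPM. Cytosolic ribosomal protein genes stayed near the centre of all genes, 10 lower and 4 higher of 82 with a median of −0.02. Their counts depended on the scaling and the libraries: 26 were lower with limma on FPKM and 3 with RLE factors, and 1 was lower without replicate 1 at 50 µM and 16 without untreated replicate 1.

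Most genes for ribosome biogenesis and nucleotide synthesis fell. Of 41 ribosome biogenesis genes 32 fell, 17 at least 2-fold, and 0 rose. POLR1A, the largest subunit of RNA polymerase I, had 74.1, 71.6 and 59.3 CPM and then 24.6, 20.4 and 15.5, 3.39-fold lower, RRS1 fell 6.27-fold, NHP2 2.35-fold and UBTF, an activator of rRNA transcription, 2.03-fold. Against 20 µM 10 of these genes were higher and 3 lower. Nucleotide synthesis genes fell in 18 of 22 cases. CAD, which begins pyrimidine synthesis, had 75.3, 72.3 and 60 CPM and then 16.2, 13.5 and 14.3, 4.72-fold lower, and CTPS1 fell 3.19-fold from 338, 336 and 298. TK1, thymidine kinase 1, rose 1.92-fold against the rest. Among growth regulators ODC1, the first enzyme of polyamine synthesis, fell 2.88-fold from 210, 217 and 232 CPM, and the repressors MXD1 and MXI1 rose 5.10-fold and 2.10-fold while MXD3 fell 6.43-fold.

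Genes of mitosis fell throughout. All 35 tested mitosis genes fell, 29 at least 2-fold, with a median log2 change of −1.50. CDC20 (chromosome 1, 43358955 to 43363203) had 530, 561 and 535 CPM and then 86.9, 85.7 and 94.2, 6.09-fold lower (log2 −2.61 ± 0.10, adjusted p = 1.19e-12). PLK1, the polo-like kinase of mitotic entry, had 138, 145 and 138 CPM and then 21.0, 19.6 and 19.1, 7.06-fold lower, and BIRC5, survivin, fell 3.63-fold. KIF20A, a kinesin of cytokinesis, fell 18.9-fold, and MKI67, the proliferation marker, from 467, 462 and 424 CPM to 217, 155 and 133, 2.68-fold. No treated library reached an untreated one in these genes. The summed level was 4465 to 4518 CPM untreated, 2066 to 2530 at 20 µM and 1358 to 1637 at 50 µM, and 33 of the 35 genes were lower at 50 than at 20 µM.

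DNA replication genes fell in 23 of 31 cases, 4 at least 2-fold, and rose in 1, or in 2 without replicate 1 at 50 µM or untreated replicate 2. UHRF1, which maintains DNA methylation, fell 2.46-fold, the helicase subunit gene MCM3 from 274, 280 and 261 CPM to 140, 119 and 105 (2.24-fold), and MCM2 1.90-fold, while GINS4, of the same helicase, rose 1.77-fold. Of the 31 genes 28 were lower at 50 than at 20 µM and 1 higher, where 19% of all genes were lower. CDKN1A, the inhibitor p21, had 82.1, 91.8 and 105 CPM and then 766, 880 and 712, 8.47-fold higher (log2 3.08 ± 0.17, adjusted p = 5.89e-11). CCND1 rose 2.83-fold and CDK6 1.54-fold, E2F8 fell 2.72-fold, and the list of cyclins and inhibitors was divided, 6 higher and 8 lower of 20. Replication-dependent histone genes, whose mRNAs mostly lack poly(A), had 5 higher and 2 lower of 11 tested at low levels.

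Genes linked to p53 and to cell death changed in both directions. Of 22 p53 targets 13 rose and 6 fell. SESN1 rose 2.46-fold, PLK3 3.83-fold and TNFRSF10B, the death receptor DR5, had 42.5, 40.4 and 37.0 CPM and then 143, 169 and 161, 3.94-fold. FDXR and XPC, also p53 targets, fell 2.15-fold and 1.61-fold. In the BCL2 family 11 of 17 rose and 3 fell. MCL1, an inhibitor of apoptosis, had 559, 536 and 635 CPM and then 1908, 1917 and 1622, 3.15-fold, and BCL2A1, another, rose 8.22-fold, whereas BCL2 itself had 113, 104 and 109 CPM and then 29.6, 18.9 and 23.5, 4.52-fold lower. BNIP3L, a mitophagy receptor induced by hypoxia, rose 4.79-fold and the pro-apoptotic BIK fell 3.64-fold. Caspase and death receptor genes rose in 13 of 22 cases and fell in 4, with TNFRSF10D, a decoy receptor, up 3.51-fold and XIAP, a caspase inhibitor, up 2.26-fold. The lower members numbered 0 without replicate 3 and 1 without replicate 1 or 2 at 50 µM, and 2 in DESeq2.

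Multidrug transporter genes had 7 higher and 5 lower of 13. ABCC3, which exports glucuronides and other conjugates, had 2.01, 1.64 and 1.81 CPM and then 66.1, 67.3 and 76.0, 38.2-fold higher, and ABCG2 rose 42.9-fold to under 10 CPM. ABCC4 fell 2.75-fold and the carnitine importer gene SLC22A5 2.88-fold. Among noncoding RNAs tied to stress, 14 of 18 rose and 1 fell, or 2 without replicate 3 at 50 µM. LUCAT1, an NRF2-linked RNA, had 5.07, 3.43 and 3.98 CPM and then 170, 164 and 169, 40.2-fold higher (log2 5.33 ± 0.18, adjusted p = 3.5e-13), MIR155HG, the host of miR-155, rose 3.45-fold and MIR210HG, of the hypoxia-linked miR-210, 2.86-fold. DANCR fell 1.84-fold. Zinc finger genes named ZNF were near the background, 137 higher and 129 lower of 467, and LINC genes 76 and 88 of 281.

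Protein-coding genes that span more of the genome rose more often, when divided into 5 classes of equal size by span. In the class with the shortest span, 192 to 10569 bases, 12.9% were at least 2-fold higher and 16.8% at least 2-fold lower. In the class with the longest span, 95543 to 2241765 bases, the shares were 18.7% and 10%. The median log2 change went from −0.22 in the shortest to 0.16 in the longest, and the median untreated level of the 2 classes was 16.7 and 20.4 CPM. Exonic length moved with span: the class with the shortest exons had 13.1% higher and 15.3% lower, and that with the longest 16.6% and 8.69%. Which of the 2 lengths the result follows was not tested. In the shortest class the balance turned without replicate 3 at 50 µM, to 14.2% higher and 13.9% lower. With limma on log2(FPKM + 1) the shares were 7.67% and 13.6% in the shortest class and 8.73% and 6.01% in the longest. By chromosome, genes on chromosome 16 were called higher in 22.3% and lower in 45.2% of 792 cases, although the metallothionein genes that rose most lie there, and on chromosome 4 the shares were 39.7% and 27.0% of 529.

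**Figure D5:**
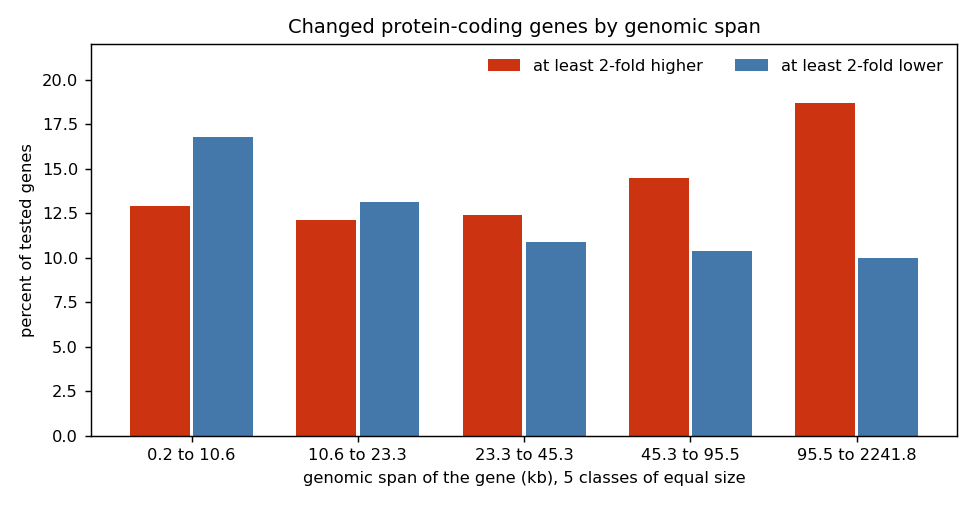
Percent of tested protein-coding genes that were at least 2-fold higher or lower at 50 µM, in 5 classes of equal size by genomic span. The lower share falls from 16.8% in the shortest class to 10% in the longest, where the higher share is 18.7%.

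The 3 libraries at 50 µM differed among themselves more than the untreated ones. The median SD of log2 CPM over tested genes was 0.156 at 50 µM, 0.153 at 20 µM and 0.112 untreated. Of 9251 genes with at least 10 CPM at 50 µM, 93 differed by over 2-fold between its libraries, among them MT1A, MT1B, MT-ND3, MT-ND6, MT-CYB, SUSD5, CCL4, IL1B, CXCL1, ISG15 and EDNRB. SUSD5 had 42.4, 21.9 and 6.68 CPM, and its rise of log2 6.93 became 6.27 without replicate 1. EDNRB, an endothelin receptor gene, ran the other way, with 14.2, 17.0 and 40.5 CPM against under 1 CPM in each untreated library. Replicate 1 thus held the most metallothionein, interleukin and mitochondrial mRNA, and replicate 3 the most HMOX1 and EDNRB.

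There were 9 genes at 0 counts in untreated cells and at 1 CPM or more at 50 µM, and 5 the other way. The 9 included MT1B, the muscle gene XIRP1 (151 counts at 50 µM, at least 55-fold higher), CAVIN1 of caveolae (88 counts), ABCA4 and BMP10. Of the 5 with 0 counts at 50 µM, SLC6A11, a GABA transporter gene, had 78 counts in untreated cells and was at least 23.8-fold lower. Counts this small do not show that a gene is silent.

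The contrast with 20 µM chlorquinaldol shares the 50 µM libraries with the contrast against untreated cells. In it 3168 genes (19.1%) were higher at 50 µM and 3159 (19%) lower, and 758 (4.56%) and 555 (3.34%) at least 2-fold. On the FPKM scale with limma and a pseudocount of 0.1 the split was 1750 higher and 3737 lower. Among genes with a group mean of at least 10 CPM and no overlap between libraries, the largest step upward was in EBI3, which was 22.3-fold higher at 50 than at 20 µM (log2 4.48). It was followed by CXCL2, 20.3-fold (log2 4.34), IL1A 17.7-fold (log2 4.15), EDNRB 17.6-fold (log2 4.14), CXCL3 17.4-fold (log2 4.12), HMOX1 15.6-fold (log2 3.96), SERPINE2 14.9-fold (log2 3.9) and NRCAM 13.5-fold (log2 3.75). By the same rule the largest step downward was in MAP2K6, a kinase of p38, which was 11.1-fold lower (log2 −3.47), with a mean of 12.4 CPM at 20 µM and with 3.57, 6.51 and 5.85 CPM untreated. TMEM104 (log2 −2.53), MT-ND3 (−2.48), MT-ND6 (−2.30), MS4A4A (−2.15), NUDT7 (−2.08), MT-CO2 (−2.00) and MS4A6A (−1.98) followed. Gene groups differed in how many members were called between the doses. The count was 1 of 9 for metallothioneins, 3 of 11 for granule genes and 13 of 41 for ribosome biogenesis. It was 17 of 18 for NF-kB genes, 9 of 9 for CXC chemokines, 13 of 15 for MAP kinase feedback and 33 of 35 for mitosis, where 38.1% of all genes were called. Few calls do not show equal levels at the 2 doses. The 50 µM libraries differed up to 9.11-fold for MT1A and 8.87-fold for MT1B, and such a spread makes a call less likely.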

How the data were processed

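RNA from THP-1 cells was selected with oligo(dT) and sequenced on the BGI DNBSEQ platform according to the labels' protocols. The deposited tables hold estimated counts per gene and FPKM values from RSEM on GRCh38, per the submitters' processing notes, which also name DESeq2 1.26.0. The RSEM version and the strand setting are not given in the sources used here, and 42.3% of the values above 0 in the table of estimated counts were not whole. Counts were rounded to whole numbers, and 326 entries without annotation, which held 0.201 to 0.255% of counts, were left out. Of 62914 entries, 62588 were Ensembl identifiers, of which 42219 carried a symbol, and 58167 were found in GENCODE 29. Symbols of 3 listed genes found no match.

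Genes were kept by filterByExpr with a minimum count of 10. Counts were scaled by TMM factors (1.019 to 1.056 untreated, 0.905 to 0.964 at 50 µM) and fitted with edgeR 4.0.16 (glmQLFit and glmQLFTest in R 4.3.3) in 1 model of 12 libraries and 4 groups without covariates. Adjusted p-values are Benjamini-Hochberg values over 16628 tested genes, and every adjusted p in the text is of this kind unless another tool is named. Errors of log2 changes are standard errors from the same test, and CPM use the TMM-scaled library size. Genes at 0 counts in a group were given lower bounds at 3 counts over the group. Intervals and bounds cover counting error only. The script was tested on simulated data. Promoters came from RefSeq on GRCh38.p14. Alternatives were limma 3.58.1 on log2(FPKM + 0.1) and log2(FPKM + 1), DESeq2 1.42.0, other size factors and filters, a replicate block and each library left out.

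The 77 gene lists and the comparison itself were chosen with earlier results of these data known. Named were the 20 largest increases and 20 largest decreases with a symbol, a group mean of 10 CPM or more and no overlap between libraries. To these came up to 4 members of each list with the smallest p and up to 2 of the opposite direction, a panel of 20 genes, the 8 largest steps each way between the doses and the 25 most abundant genes of each group. MT-CO3, MT-CYB, MT1E, MT1H, CXCL1, CCL4, TOP2A and the genes at 0 counts in a group were named after their values were seen. Some named or listed genes may be left out of the text.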

Additional observations from a re-analysis of the deposited data

How the results depend on the processing

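Of 6677 values of single genes under the alternatives, 6555 kept their direction and call, 112 lost the call (25 genes), 10 gained one and 0 reversed, and 365 of the 394 genes kept direction and call in every alternative run. Of 2618 list counts 184 moved by over 1.5 times. At least 2-fold increases over untreated cells numbered 1494 with 5 CPM required in 3 libraries, 1206 with limma on log2(FPKM + 1) and 1234 with that scale over all genes, and decreases 1295 and 1411 under the first and the second of these. Against 20 µM, genes higher at 50 µM numbered 1750 with limma on log2(FPKM + 0.1), 1839 on log2(FPKM + 1) and 1645 on that scale over all genes, and genes lower numbered 2089 at an adjusted p below 0.01. Leaving out 1 library at a time gave 5070 to 5676 genes higher and 5041 to 5506 lower than in untreated cells. With the replicate block 5281 genes were higher and 5697 lower, and deviations of same-numbered libraries correlated at 0.0372, 0.0369 and −0.00948, so the numbers were not taken to pair the libraries. With 3 libraries a group and 8 residual degrees of freedom, genes of a few counts such as IFNB1 could not be resolved at this depth. The span classes were compared under the alternatives after the data had been seen.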
